A study of Mus musculus with 19 samples.

Results

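The nuclear genes for the subunits of the mitochondrial respiratory chain were described across 19 arrays of mouse spleen RNA. Members were all genes with a probe set of exactly 1 gene symbol that begins with Ndufa, Ndufb, Ndufc, Ndufs, Ndufv, Uqcr, Atp5, Cox4, Cox5, Cox6, Cox7 or Cox8, or is Cyc1 or one of the 4 Sdh genes. Assembly factors (Ndufaf) and pseudogene symbols (-ps) were left out, and the probe set with the highest mean stood for a gene that had more. This gave 80 genes of the 22180 tested, from 89 probe sets: 34 for complex I, 4 for complex II, 8 for complex III, 17 for complex IV and 17 for complex V. The genes were chosen by symbol, with earlier results of these data known, and only the probe set of a gene by its mean level. The subunits encoded in mitochondrial DNA were not analysed here, and Cox6c, Ndufb2, Ndufb4, Ndufs6 and Uqcr10 had only probe sets shared with a second symbol and were not members.

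The series used mice in which the human germinal centre protein HGAL is switched on from the Rosa26 locus by a Cre driver. Spleens with tumours came from Rosa26-HGAL mice with Aid-Cre (4 arrays), Mb1-Cre (5 arrays) or Sca1-Cre (4 arrays). Spleens of Rosa26-HGAL mice with Sca1-Cre that were labelled pre-tumoral gave 3 arrays, and spleens of wild-type mice gave 3. As background, Aid is expressed in germinal centre B cells, the Mb1 (Cd79a) promoter acts from early B cells onwards, and Sca1 (Ly6a) marks blood stem and progenitor cells. The sources used here give neither strain nor age nor the alleles of the wild-type mice, and all animals were kept in a conventional facility. RNA came from total spleen and not from sorted cells, so fewer cells of a type and less RNA per cell cannot be told apart.

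Complexes I and II take electrons from NADH and succinate, complex III passes them to cytochrome c, and complex IV hands them to oxygen. Complexes I, III and IV pump protons across the inner mitochondrial membrane, and complex V, the ATP synthase, uses the proton gradient to make ATP. Most subunits are nuclear genes whose promoters are known to hold sites for NRF1, for ETS factors such as GABP, for YY1 and for oestrogen-related receptors (ERR). Resting B cells respire at a low rate, and both activated B cells and a metabolic class of human diffuse large B-cell lymphoma are known for high expression of respiratory chain genes.

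Promoter sequences are shown as background to the known sites named above. The members varied together between arrays, as the correlations given further on describe, but a link of this to the promoters was not tested. RefSeq windows of 300 bases (250 before and 50 after the transcription start, build GRCm38.p6) were given for 65 of the 80 members. All shares below are over the first window of each gene. Each was searched on both strands for 4 words of 8 letters, none of which contains another: GCATGCGC (NRF1), CCGGAAGT (ETS), AAGATGGC (YY1) and CAAGGTCA (ERR). The NRF1 word was in 15.4% of member windows and 2.8% of the first windows of all genes, and the ETS word in 7.69% and 4%. The YY1 word was in 12.3% of member windows against 2.88% of all, and the ERR word in 6.15% against 1.53%. Any of the 4 was found in 25 of 65 member windows (38.5%) and in 10.6% of all windows. By complex, the NRF1 word was in 3 of 30 windows of complex I, 1 of 3 of complex II, 2 of 4 of complex III, 1 of 13 of complex IV and 3 of 15 of complex V. The YY1 word was in 6 of 30 windows of complex I, 2 of 15 of complex V and 0 of those of the other complexes. A match is a description of the letters and says nothing of binding.

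For each complex, the member with the lowest p in the Sca1-Cre tumours against wild type among those with a window was taken, and its 250 bases before the start are printed 5′ to 3′, with any of the 4 words in capitals. Ndufa6 (chr15:82354292-82354541, minus strand) holds the NRF1 word 83 bases before the start. Sdha (chr13:74350241-74350490, minus strand), Uqcrfs1 (chr13:30545317-30545566, minus strand) and Cox7b (chrX:106015450-106015699, plus strand) hold none of the words. Atp5l (chr9:44920743-44920992, minus strand) holds the NRF1 word at its far end and the ERR word, read on the other strand as TGACCTTG, 13 bases before the start.
Ndufa6: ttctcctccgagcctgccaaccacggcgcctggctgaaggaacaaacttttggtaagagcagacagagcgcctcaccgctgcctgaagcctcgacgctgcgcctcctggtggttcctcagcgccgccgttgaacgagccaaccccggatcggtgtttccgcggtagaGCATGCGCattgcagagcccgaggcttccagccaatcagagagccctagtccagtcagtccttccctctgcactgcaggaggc
Sdha: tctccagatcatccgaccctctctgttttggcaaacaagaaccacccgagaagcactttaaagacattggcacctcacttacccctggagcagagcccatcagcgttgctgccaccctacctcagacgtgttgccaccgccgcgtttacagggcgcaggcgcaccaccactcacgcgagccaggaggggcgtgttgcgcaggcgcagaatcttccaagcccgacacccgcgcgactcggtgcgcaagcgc
Uqcrfs1: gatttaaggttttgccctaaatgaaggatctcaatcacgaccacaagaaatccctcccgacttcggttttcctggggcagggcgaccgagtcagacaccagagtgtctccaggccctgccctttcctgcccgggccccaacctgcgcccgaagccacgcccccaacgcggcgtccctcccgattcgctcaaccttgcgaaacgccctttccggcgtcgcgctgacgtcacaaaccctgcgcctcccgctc
Cox7b: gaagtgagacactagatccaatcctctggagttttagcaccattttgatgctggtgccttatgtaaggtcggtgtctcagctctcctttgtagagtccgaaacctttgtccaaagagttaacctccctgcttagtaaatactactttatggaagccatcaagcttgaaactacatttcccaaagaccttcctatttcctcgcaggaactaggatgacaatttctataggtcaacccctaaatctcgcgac
Atp5l: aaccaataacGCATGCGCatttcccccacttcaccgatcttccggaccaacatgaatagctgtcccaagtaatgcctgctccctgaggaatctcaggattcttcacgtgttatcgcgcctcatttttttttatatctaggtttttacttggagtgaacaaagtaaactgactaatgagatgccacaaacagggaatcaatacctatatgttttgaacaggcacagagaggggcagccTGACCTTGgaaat

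Values are log2 expression per probe set as deposited, so a difference of 1 is a doubling. Array medians lay between 5.23 and 5.40, and arrays of a group correlated at 0.929 to 0.991 over all genes. The 40th percentile of an array lay at 4.72 to 4.90, and 5 members had a mean below it: Cox7b2, Cox8b, Cox8c, Ndufa4l2 and Ndufs5. Markers fixed for spleen cell types were present, with a mean level of 10.75 to 11.19 for 9 B cell genes and 8.68 to 9.61 for 6 T cell genes in wild type. Transcripts of exocrine pancreas stood out in Mb1-Cre tumour replicate 2, at a median of 3.17 above the wild-type mean, and in wild-type replicate 2, at 0.92, while the other arrays lay between -0.68 and 0.23. Many members have processed pseudogenes, and transcripts of near-identical copies cannot be told apart by the probes.

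Respiratory chain genes stood higher in the Sca1-Cre tumour spleens than in any other group by list median, and no single member passed the test after adjustment. For each array, the median over the 80 members of the difference from the wild-type mean was taken. It was 0.10, -0.01 and -0.09 in the wild-type arrays and -0.04, -0.02 and 0.12 in the Sca1-Cre pre-tumour arrays. The Sca1-Cre tumour arrays were at 0.12, 0.12, 0.25 and 0.45, all above every wild-type array. The lowest of them (0.115) was close to the highest wild-type array (0.104) and below the highest pre-tumour array (0.121). Mb1-Cre tumours were at -0.09, -0.06, -0.13, 0.22 and 0.27, a spread wider than that of wild type on both sides. Aid-Cre tumours were at 0.10, 0.17, -0.05 and -0.18 and thus spanned the wild-type range. Counted by gene, 55, 52, 65 and 67 of the 80 members lay above their wild-type mean in the Sca1-Cre tumour arrays. In the Mb1-Cre arrays the counts were 23, 29, 22, 65 and 66, and in the Aid-Cre arrays 54, 53, 36 and 18. The median of all genes tested stayed between -0.03 and 0.02 in every array. For complex IV alone, the array medians averaged 0.098 in the Mb1-Cre and 0.097 in the Sca1-Cre tumours. By this median the Sca1-Cre tumours did not lead there. The genes of complex IV include dim or tissue-restricted forms (Cox4i2, Cox6a2, Cox6b2, Cox7a1, Cox7b2, Cox8b and Cox8c). Their means over the 19 arrays ran from 3.13 (Cox7b2) to 6.08 (Cox6b2), and no median without them was taken.

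**Figure D1:**
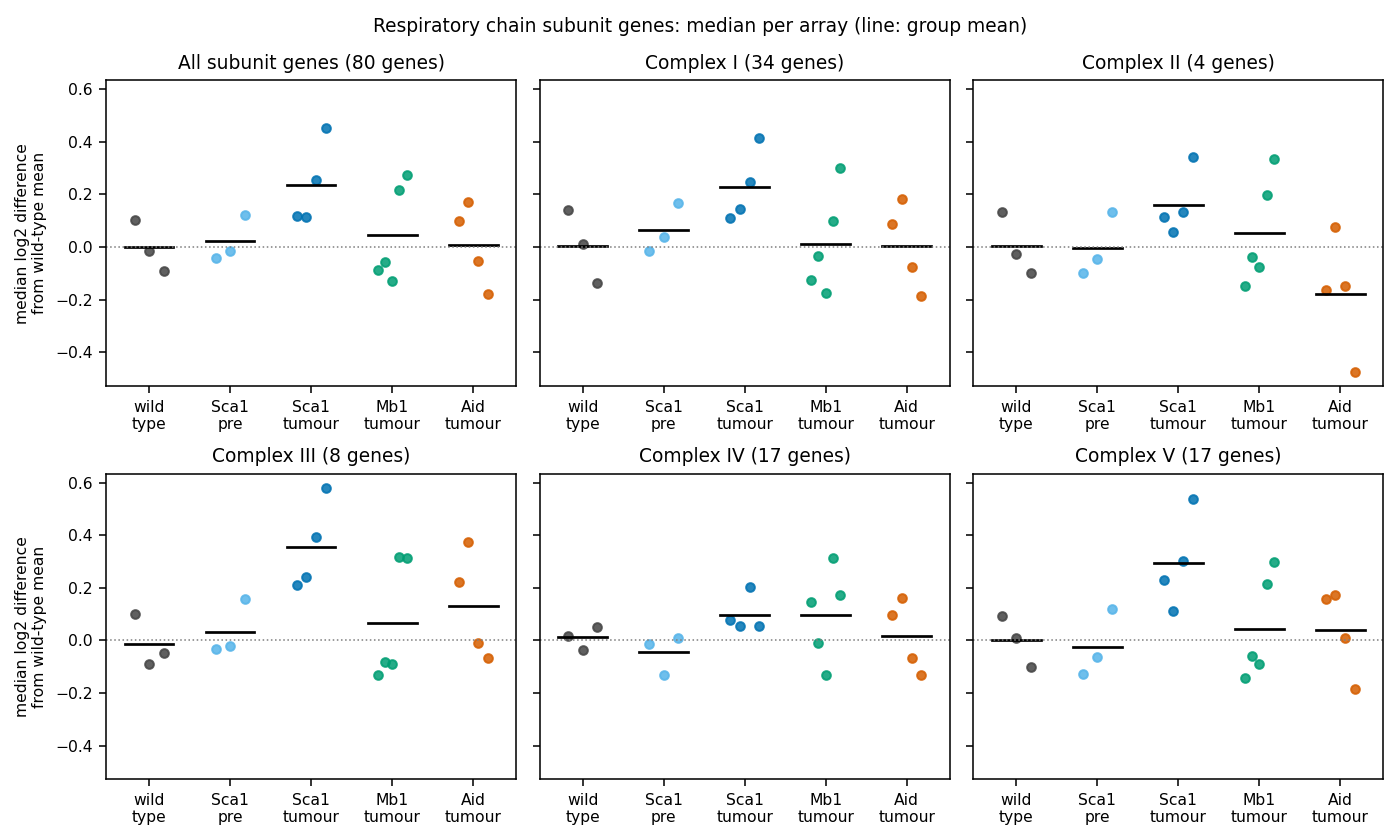
Each point is 1 array, and the vertical axis is the median log2 difference from the wild-type mean over all 80 subunit genes (first panel) or the genes of 1 complex, with a line at the mean of each of the 5 groups. The 4 Sca1-Cre tumour arrays lie from 0.12 to 0.45 for all members, whereas the 5 Mb1-Cre arrays run from -0.13 to 0.27.

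The comparisons of the study ask how spleens with HGAL tumours differ from wild type, how tumours differ from the pre-tumour state, and how the 3 Cre lines differ. In all 9 limma comparisons and in the F-test over the 3 tumour groups, 0 of 80 members had an adjusted p under 0.05. Few of all genes had one either: 0.0180% for all tumours and for Aid-Cre tumours against wild type, 0% for Mb1-Cre tumours, 0.0406% for Sca1-Cre tumours and 0.00451% for the pre-tumour spleens. Sca1-Cre tumour against pre-tumour gave 0%, Aid-Cre against Mb1-Cre and against Sca1-Cre 0.0451% each, Mb1-Cre against Sca1-Cre 0.0406%, and the F-test 0.0496%. The lowest adjusted p of a member was 0.0766, for Ndufb5 in Mb1-Cre against Sca1-Cre tumours. Members are therefore counted at an unadjusted p under 0.05 beside the share of all genes that passed in the same direction.

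Against wild type, the Sca1-Cre tumours had 20 of 80 members higher at an unadjusted p under 0.05, where 6.12% of all genes were higher, and 2 lower, where 5.25% of all genes were lower. The median difference was 0.23 over the members and -0.00 over all genes, and 63 of 80 members were higher. In 25 members every Sca1-Cre tumour array lay above every wild-type array, and in 3 every one lay below, where 6.21% and 5.86% of all genes did so. Complex III had all 8 members higher, with a median of 0.36. Complex I had 28 of 34 higher (median 0.24), complex II 3 of 4 (0.22), complex V 14 of 17 (0.22) and complex IV 10 of 17 (0.06). The 6 core subunits of complex I measured had a median of 0.22 and its 28 accessory subunits one of 0.24. The count of 20 depends on single arrays. It was 13 without Sca1-Cre tumour replicate 4, where 4.55% of all genes were higher, and 12 without wild-type replicate 3, where 3.92% were.

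The other tumour lines differed less from wild type. Aid-Cre tumours had 2 members higher (Uqcrb and Atp5a1), where 3.95% of all genes were, and 0 lower, where 4.35% were, with a member median of 0.01. Mb1-Cre tumours had 1 higher (Uqcrb; 5.13% of all genes) and 3 lower (Atp5j2, Ndufs5 and Ndufb10; 6.20%), with a median of 0.05. With the 3 lines weighted equally, all tumours had 5 members higher (3.90% of all genes) and 2 lower (5.03%), with a median of 0.08 and 53 of 80 members higher. The pre-tumour spleens had 2 members higher (Ndufa6 and Uqcrb; 3.07%) and 0 lower (2.40%), with a median of 0.00 and 40 of 80 members higher. These comparisons share the 3 wild-type arrays. Differences between the lines were tested directly and are given after the complexes.

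**Figure D2:**
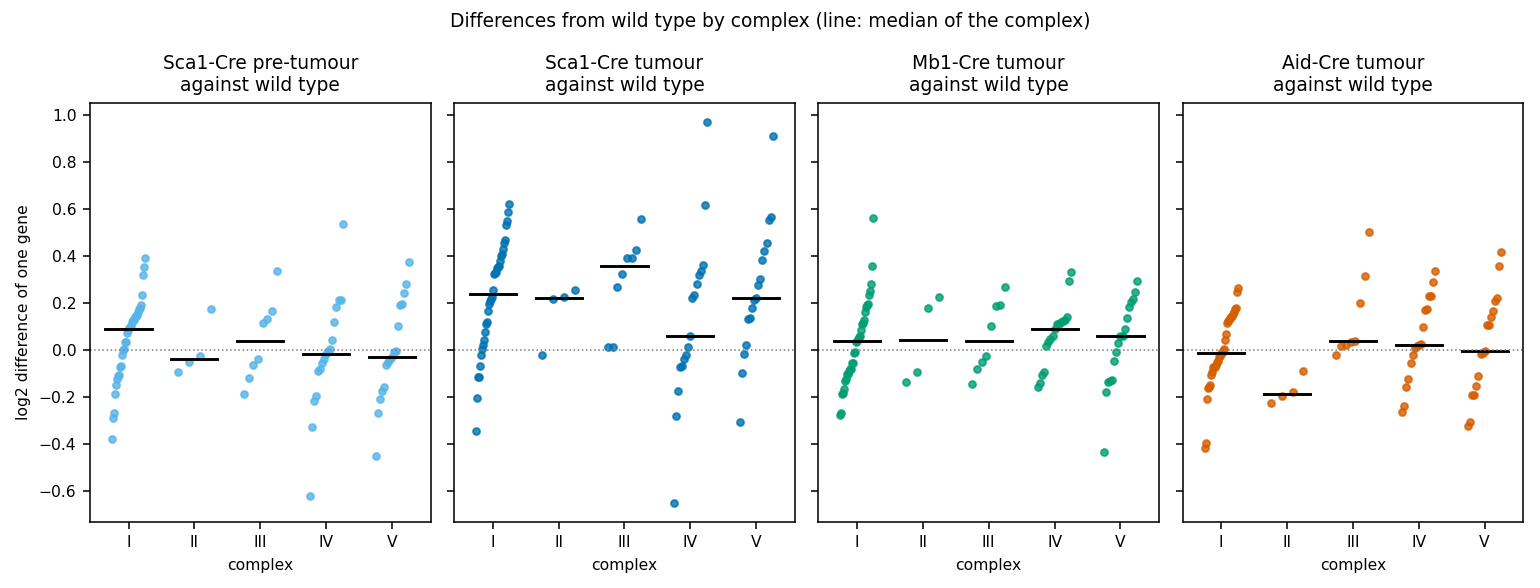
Each point is 1 subunit gene, the vertical axis is its fitted log2 difference from wild type, and the horizontal axis gives complexes I to V with a line at the median of each. In the Sca1-Cre tumours all 8 genes of complex III lie above 0 and the points of complex IV spread from -0.65 to 0.97.

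Complex I was led in the Sca1-Cre tumours by Ndufa6, an accessory subunit that binds the mitochondrial acyl carrier protein. It was at 8.43, 8.48 and 8.09 in wild type, 8.76, 8.62 and 8.80 in the pre-tumour spleens, and 8.93, 8.67, 8.80 and 8.80 in the Sca1-Cre tumours. Mb1-Cre tumours had 8.61, 8.09, 8.56, 8.44 and 8.54, and Aid-Cre tumours 8.24, 8.75, 8.60 and 8.35. Both Sca1-Cre groups thus lay above wild type without overlap, and the other 2 lines overlapped it. The log2 difference from wild type was 0.47 ± 0.14 (SE) in the Sca1-Cre tumours (adjusted p = 0.212) and 0.39 ± 0.15 in the pre-tumour spleens (adjusted p = 0.856).

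Of the core subunits of complex I, which carry the redox centres, Ndufv2 and Ndufs1 of the NADH-oxidising arm were higher in every Sca1-Cre tumour array than in any wild-type array. The difference was 0.53 ± 0.19 for Ndufv2 (adjusted p = 0.288) and 0.33 ± 0.15 for Ndufs1 (adjusted p = 0.397). The third core subunit of that arm, Ndufv1, was at -0.02 ± 0.20, and the core subunit Ndufs7 at -0.07 ± 0.11. Ndufs8, an iron-sulphur subunit near the quinone site, read 8.64, 8.69 and 8.14 in wild type and 8.90, 8.68, 8.81 and 9.21 in the Sca1-Cre tumours. Its values were 7.92, 8.48, 8.22, 8.51 and 8.72 in the Mb1-Cre tumours and 7.87, 8.32, 8.52 and 7.59 in the Aid-Cre tumours. The Aid-Cre arrays all lay below the Sca1-Cre arrays, and both overlapped wild type (Sca1-Cre 0.41 ± 0.24, Aid-Cre -0.42 ± 0.24). Ndufs3, a core subunit of the same arm, differed from wild type by 0.11 ± 0.11 in the Sca1-Cre tumours and -0.13 ± 0.10 in the Mb1-Cre tumours.

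Among the accessory subunits, Ndufc2 (0.59 ± 0.19), Ndufa12 (0.55 ± 0.19), Ndufc1 (0.46 ± 0.17), Ndufb5 (0.40 ± 0.16) and Ndufa13 (0.35 ± 0.13) did not overlap wild type in the Sca1-Cre tumours. Each had an unadjusted p under 0.05 and an adjusted p of 0.25 to 0.344. A second, dimmer Ndufa12 probe set, with a mean of 5.55, was higher by less in the Sca1-Cre tumours (0.29 ± 0.18). Ndufb5, a subunit of the membrane arm, was at 7.35, 7.31 and 6.94 in wild type and 7.75, 7.43, 7.37 and 7.86 in the Sca1-Cre tumours. The Mb1-Cre tumours had 7.14, 6.79, 6.75, 6.98 and 7.41 and the Aid-Cre tumours 7.03, 7.14, 7.35 and 7.19. In 4 of 5 Mb1-Cre arrays Ndufb5 was thus below every Sca1-Cre array. Ndufa1, a membrane-arm subunit on the X chromosome, was 0.43 ± 0.21 higher in the Sca1-Cre and 0.36 ± 0.20 higher in the Mb1-Cre tumours (adjusted p 0.47 and 0.512). Ndufb9 had the highest value of complex I in the Sca1-Cre tumours, 0.62 ± 0.36, and 0.56 ± 0.34 in the Mb1-Cre tumours, with adjusted p of 0.553 and 0.541.

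A few genes of complex I ran the other way. Ndufs5 read lower in every tumour line, at -0.35 ± 0.12 in the Sca1-Cre tumours (adjusted p = 0.298) and -0.28 ± 0.12 in the Mb1-Cre tumours (adjusted p = 0.407). Its probe set was near background, and a brighter probe set that also names a pseudogene read 0.27 ± 0.19 higher in the Sca1-Cre tumours. The 2 probe sets of Ndufs5 therefore disagree in direction. Ndufb10 was lower in the Mb1-Cre tumours (-0.27 ± 0.12, adjusted p = 0.434) and at -0.29 ± 0.14 in the pre-tumour spleens (adjusted p = 0.883). Ndufa3 was at 0.24 ± 0.13 in the Mb1-Cre tumours and -0.11 ± 0.14 in the Sca1-Cre tumours, and Ndufv3 at -0.16 ± 0.09 in the Aid-Cre tumours. Ndufa4, named for complex I but known as a subunit of complex IV, was at 0.25 ± 0.19 in the Sca1-Cre tumours and -0.27 ± 0.20 in the pre-tumour spleens. Its hypoxia-induced relative Ndufa4l2 stayed near background in all groups, with values from 3.90 to 4.47.

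Complex II, which is also an enzyme of the citric acid cycle, was the one in which the Aid-Cre tumours stood lowest. All 4 Sdh genes were below wild type there, at -0.09 ± 0.12 for the flavoprotein Sdha, -0.18 ± 0.15 for the iron-sulphur protein Sdhb, and -0.22 ± 0.18 and -0.19 ± 0.21 for the membrane anchors Sdhc and Sdhd. The lowest adjusted p of the 4 was 0.792. The median of the 4 genes was -0.16, 0.08, -0.15 and -0.48 in the Aid-Cre arrays, so 1 array was far below the others. In the Sca1-Cre tumours Sdha was at 10.15, 10.19, 9.88 and 10.21, against 9.99, 9.88 and 9.81 in wild type and 9.81, 9.75, 9.56, 9.72 and 9.93 in the Mb1-Cre tumours. The Sca1-Cre values of Sdha, Sdhb and Sdhd were 0.22 ± 0.12, 0.22 ± 0.15 and 0.25 ± 0.21 above wild type, and that of Sdhc -0.02 ± 0.18. Sdhc and Sdhd were higher in the Mb1-Cre tumours (0.18 ± 0.17 and 0.23 ± 0.20), with adjusted p of 0.707 and 0.693.

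Complex III had the member with the lowest p against wild type of all 80. Uqcrb, a small subunit at the quinone-binding side of the complex (chr13:66900576-66905350, GRCm38.p6), was at 10.25, 9.99 and 10.16 in wild type and 10.55, 10.48 and 10.37 in the pre-tumour spleens. Sca1-Cre tumours had 10.56, 10.73, 10.59 and 10.88, Mb1-Cre tumours 10.37, 10.15, 10.36, 10.54 and 10.59, and Aid-Cre tumours 10.78, 10.82, 10.55 and 10.38. All HGAL arrays but 1 Mb1-Cre array lay above every wild-type array. The difference was 0.56 ± 0.12 in the Sca1-Cre tumours, 1.47-fold (adjusted p = 0.125), and 0.50 ± 0.12 in the Aid-Cre tumours (adjusted p = 0.251). It was 0.34 ± 0.13 in the pre-tumour spleens (adjusted p = 0.875) and 0.27 ± 0.12 in the Mb1-Cre tumours (adjusted p = 0.414). A dimmer probe set shared by Uqcrb and a predicted gene gave 0.43 ± 0.19 for the Sca1-Cre tumours, 0.08 ± 0.19 for the Aid-Cre tumours, 0.26 ± 0.18 for the Mb1-Cre tumours and 0.30 ± 0.20 for the pre-tumour spleens. Its wild-type values were 4.88, 5.37 and 4.59, so wild-type replicate 2 lay within or above the range of every HGAL group.

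The other genes of complex III were higher in the Sca1-Cre tumours by less. Uqcrfs1, the Rieske iron-sulphur protein, and Uqcrc1, a core protein, were higher by 0.39 ± 0.17 and 0.39 ± 0.18, without overlap with wild type (adjusted p 0.389 and 0.427). Uqcrq (0.43 ± 0.20), the core protein Uqcrc2 (0.32 ± 0.16) and Cyc1 (0.27 ± 0.23), the haem protein that reduces cytochrome c, were higher with an unadjusted p above 0.05. Uqcr11 and the hinge protein Uqcrh were at 0.01 ± 0.14 and 0.01 ± 0.12. In the Aid-Cre tumours 7 of 8 genes of this complex were above wild type, with a median of 0.04, and in the Mb1-Cre tumours 4 of 8.

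Complex IV was split between genes that stood above wild type in the Sca1-Cre tumours and genes near or below it. The latter were Cox6a1, Cox8a and the dim or tissue-restricted forms Cox4i2, Cox6a2, Cox6b2, Cox7a1, Cox7b2, Cox8b and Cox8c. Cox7b, a small subunit encoded on the X chromosome, had the largest difference of all members. It read 7.68, 7.50 and 7.80 in wild type, 8.28, 8.20 and 8.10 in the pre-tumour spleens and 8.60, 8.38, 8.74 and 8.79 in the Sca1-Cre tumours, so the 3 groups stood in that order without overlap. Mb1-Cre tumours had 7.83, 7.88, 7.43, 8.41 and 8.20, and Aid-Cre tumours 8.17, 8.36, 7.93 and 7.08, and both overlapped wild type. The Sca1-Cre tumours were 0.97 ± 0.25 higher than wild type, 1.96-fold (adjusted p = 0.176), and the pre-tumour spleens 0.54 ± 0.27 (adjusted p = 0.883). A second, dim Cox7b probe set differed by 0.06 ± 0.14, with a mean of 4.33 that lies near background. Cox5a, a subunit on the matrix side, was 0.62 ± 0.18 higher in the Sca1-Cre tumours (adjusted p = 0.214), with 8.90, 8.90, 9.40 and 9.52 against 8.78, 8.44 and 8.46.

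**Figure D3:**
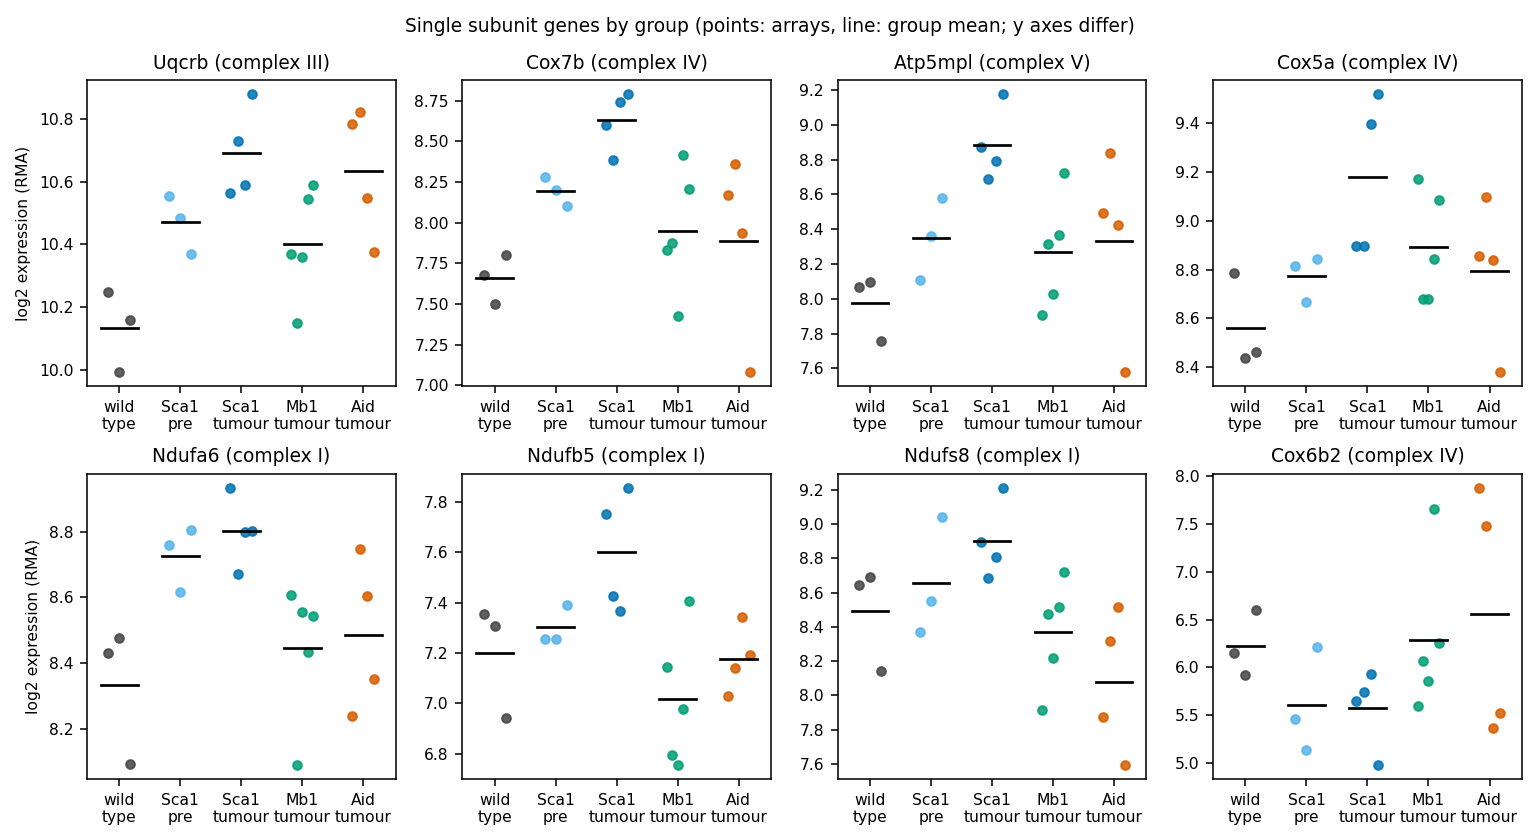
Points are arrays, the vertical axes are log2 expression (RMA) with a different range in each panel, and lines are group means for 8 members. Cox7b and Uqcrb lie above wild type in all 4 Sca1-Cre tumour arrays, whereas Cox6b2 in the Aid-Cre tumours splits into 2 arrays at 7.48 and 7.88 and 2 at 5.37 and 5.53.

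Subunits of complex IV with tissue forms are described pair by pair. Cox4i1, the widespread form, was 0.36 ± 0.19 above wild type in the Sca1-Cre tumours (adjusted p = 0.488), and Cox4i2, a form known from lung and from low oxygen, was at -0.17 ± 0.17. Cox6a1, the widespread form, was lower in all 4 Sca1-Cre tumour arrays (11.29, 11.49, 11.64 and 11.43) than in any wild-type array (11.79, 11.75 and 11.68), by -0.28 ± 0.24 (adjusted p = 0.729). Its heart and muscle form Cox6a2 was at -0.07 ± 0.16. Cox6b1 was at 0.28 ± 0.24, and the testis form Cox6b2 at -0.65 ± 0.57. The values of Cox6b2 varied most of all members: 7.88, 7.48, 5.37 and 5.53 in the Aid-Cre tumours and 5.60, 6.06, 5.86, 7.65 and 6.25 in the Mb1-Cre tumours, against 6.15, 5.93 and 6.60 in wild type. The group differences of Cox6b2 were within about their errors (Aid-Cre 0.34 ± 0.57, pre-tumour -0.62 ± 0.61).

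Cox7a2, the widespread form, was at 0.32 ± 0.30 in the Sca1-Cre tumours and its muscle form Cox7a1 at 0.01 ± 0.09. Cox7a2l, a related protein that joins complexes III and IV into supercomplexes, was 0.23 ± 0.14 higher in the Sca1-Cre tumours and without overlap with wild type (adjusted p = 0.552). Cox7c was at 0.22 ± 0.12 in the Sca1-Cre tumours, 0.18 ± 0.12 in the Aid-Cre tumours and -0.16 ± 0.11 in the Mb1-Cre tumours. Of the Cox8 forms, the widespread Cox8a was at -0.02 ± 0.11, and the muscle form Cox8b and the testis form Cox8c were near background at -0.07 ± 0.10 and -0.04 ± 0.11. Cox7b2, a testis form, was also near background (0.06 ± 0.06).

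Complex V was led by Atp5mpl, a small membrane proteolipid of the ATP synthase (chr12:111961374-111967009). It was at 8.07, 8.10 and 7.76 in wild type, 8.11, 8.36 and 8.58 in the pre-tumour spleens and 8.87, 8.69, 8.79 and 9.18 in the Sca1-Cre tumours. Mb1-Cre tumours had 7.91, 8.31, 8.03, 8.36 and 8.72, and Aid-Cre tumours 8.49, 8.84, 8.42 and 7.58. The Sca1-Cre tumours lay above both wild type and pre-tumour without overlap, by 0.91 ± 0.24 over wild type, 1.88-fold (adjusted p = 0.193). Atp5a1, a subunit of the catalytic head, was 0.46 ± 0.15 higher in the Sca1-Cre tumours (adjusted p = 0.25) and 0.42 ± 0.15 higher in the Aid-Cre tumours (adjusted p = 0.479). Atp5l, the g subunit of the membrane part whose promoter is printed above, was 0.55 ± 0.20 higher in the Sca1-Cre tumours (adjusted p = 0.290).

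The 3 genes for the c ring, which encode the same mature peptide, differed among themselves. Atp5g3 was 0.42 ± 0.15 higher in the Sca1-Cre tumours (adjusted p = 0.297) without overlap, Atp5g1 0.22 ± 0.12 (adjusted p = 0.510) and Atp5g2 0.18 ± 0.18 (adjusted p = 0.768). Atp5e, the epsilon subunit of the central stalk, was 0.28 ± 0.16 higher in the Sca1-Cre tumours and -0.32 ± 0.16 in the Aid-Cre tumours (adjusted p 0.559 and 0.627). A second Atp5e probe set, with a mean of 7.52 against 7.92 for the one used, read -0.02 ± 0.14 and -0.24 ± 0.14, so the higher level in the Sca1-Cre tumours was not seen there. Atp5j2, the f subunit, was lower in every tumour line: -0.31 ± 0.14 in the Sca1-Cre tumours (adjusted p = 0.418), -0.43 ± 0.13 in the Mb1-Cre tumours (adjusted p = 0.26) and -0.19 ± 0.14 in the Aid-Cre tumours. Atp5k, the e subunit, was at -0.45 ± 0.22 in the pre-tumour spleens (adjusted p = 0.883) and -0.02 ± 0.21 in the Sca1-Cre tumours, and Atp5o of the peripheral stalk was within 0.10 of wild type in every group.

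**Figure D4:**
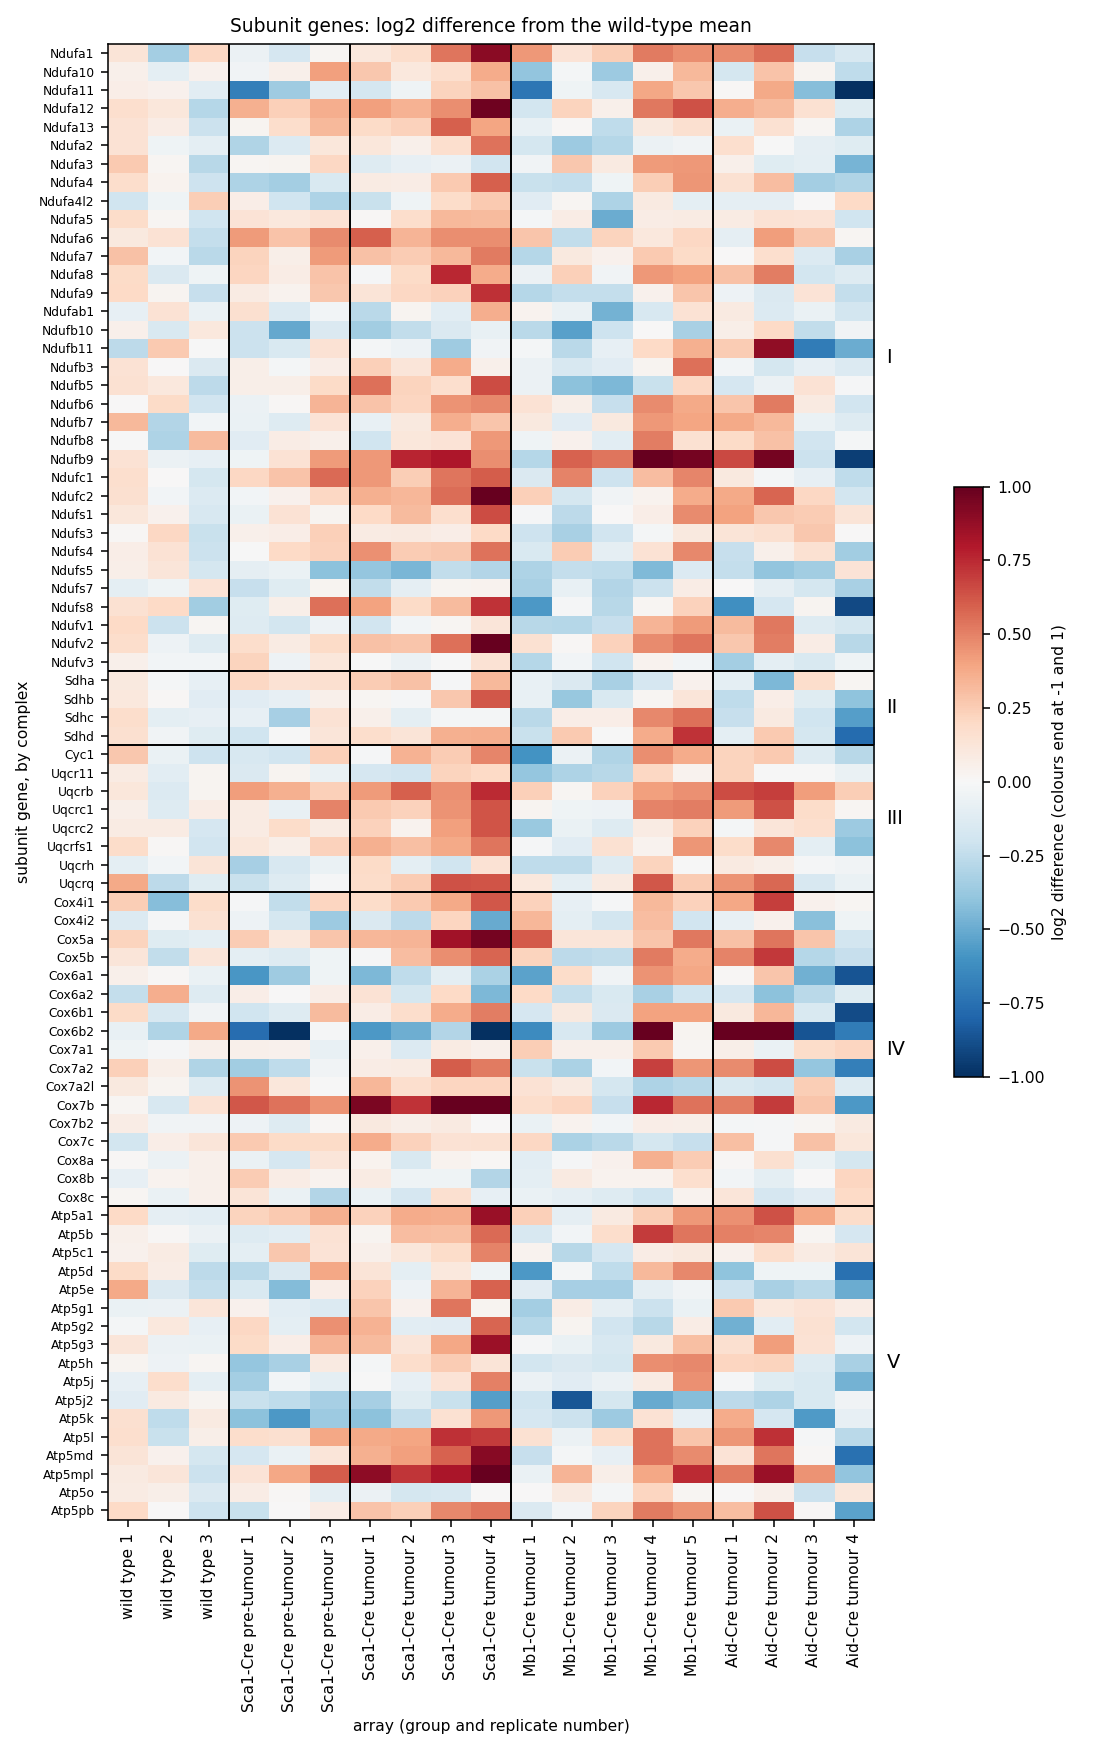
Rows are the 80 subunit genes by complex, columns are the 19 arrays by group and replicate number, and colour gives the log2 difference from the wild-type mean, with the colour scale ending at -1 and 1. The Sca1-Cre tumour columns are mostly red down complexes I, III and V, and Mb1-Cre replicates 4 and 5 and Aid-Cre replicate 4 differ from the rest of their groups over most rows.

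Against the pre-tumour spleens of the same genotype, the Sca1-Cre tumours had 10 members higher at an unadjusted p under 0.05, where 2.42% of all genes were, and 0 lower, where 2.93% were. The member median was 0.19 against -0.01 over all genes, and 69 of 80 members were higher. Complex V had the highest median (0.29, 14 of 17 higher), followed by complex III (0.22, 8 of 8), complex II (0.17, 4 of 4), complex I (0.17, 29 of 34) and complex IV (0.05, 14 of 17). The 10 genes were Atp5e (0.45 ± 0.16), Atp5g1, Atp5md, Atp5mpl, Ndufa1, Ndufa2, Ndufa4 (0.52 ± 0.19), Ndufc2 (0.51 ± 0.19), Uqcrq (0.55 ± 0.20) and Cox5a (0.40 ± 0.18), and their adjusted p was 0.851. The second probe set of Atp5e gave 0.01 ± 0.14 here. Only Ndufa6 and Uqcrb were higher in pre-tumour spleens than in wild type at an unadjusted p under 0.05, where 3.07% of all genes were. Between Sca1-Cre tumour and pre-tumour spleens these genes differed by 0.07 ± 0.14 and 0.22 ± 0.12. The number of higher members was 3 when Sca1-Cre tumour replicate 4 was left out, where 1.48% of all genes were higher, and also 3 without pre-tumour replicate 1 (1.42% of all genes) or without pre-tumour replicate 2 (1.80%).

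Between tumour lines, the Sca1-Cre tumours stood above both others by the median over all 80 members. Aid-Cre against Sca1-Cre tumours gave 22 members lower (7.92% of all genes) and 0 higher (5.69%), with a median of -0.20 and 64 of 80 members lower. Mb1-Cre against Sca1-Cre tumours gave 24 lower (10.4% of all genes) and 1 higher, Ndufa3 (7.13%), with a median of -0.21 and 67 of 80 lower. Aid-Cre against Mb1-Cre tumours gave 5 higher (4.44%) and 3 lower (4.32%), with a median of -0.02. By the F-test over the 3 lines, 23 of 80 members had an unadjusted p under 0.05, where 16.3% of all genes did. Without Sca1-Cre tumour replicate 4 both counts against Sca1-Cre were 12, where 5.94% of all genes were lower for Aid-Cre and 6.91% for Mb1-Cre. Without Aid-Cre tumour replicate 4 the count for Aid-Cre was 11, where 6.47% of all genes were lower. With dim genes filtered out, 73 members were kept. Of these, 22 were lower for Aid-Cre, where 12.2% of all genes kept were, and 20 for Mb1-Cre, where 16.3% were.

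The genes behind these counts came from every complex. In Aid-Cre against Sca1-Cre tumours, Ndufs8 (-0.83 ± 0.22, adjusted p = 0.126) and Atp5e (-0.60 ± 0.15, adjusted p = 0.108) had the lowest p. The second Atp5e probe set differed by -0.23 ± 0.13 in this comparison and by -0.03 ± 0.13 in Mb1-Cre against Sca1-Cre tumours, where the one used differed by -0.46 ± 0.14. Ndufs8 passed the adjusted threshold when Aid-Cre tumour replicate 3 was left out (-0.97 ± 0.22, adjusted p = 0.0476), with 229 genes called in all. Ndufs4, Ndufc1 (-0.52 ± 0.16), Ndufa13 (-0.40 ± 0.12), Cox7b (-0.74 ± 0.23) and 3 of the 4 Sdh genes were also lower at an unadjusted p under 0.05. In Mb1-Cre against Sca1-Cre tumours, Ndufb5 (-0.59 ± 0.14, adjusted p = 0.0766), Cox7c (-0.38 ± 0.10, adjusted p = 0.103), Ndufa2 (-0.40 ± 0.11), Atp5g1 (-0.35 ± 0.10) and Sdha (-0.35 ± 0.11) had the lowest p. Cox7c was 0.33 ± 0.10 higher and Ndufa3 -0.39 ± 0.12 in Aid-Cre against Mb1-Cre tumours (adjusted p 0.379 for both). Sdhc and Sdhd differed there by -0.40 ± 0.16 and -0.42 ± 0.19 (adjusted p 0.489 and 0.532).

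Ndufa2, Ndufa12, Ndufb9, Ndufs4, Ndufs7, Ndufv1, Atp5l and Atp5md are outside the rule for named genes and were named after their values were seen. The 27 members outside that rule ranged from -0.12 (Ndufb11) to 0.62 (Ndufb9) against wild type in the Sca1-Cre tumours. In the Aid-Cre tumours they ranged from -0.40 (Ndufa11) to 0.22 (Atp5l), and in the Mb1-Cre tumours from -0.18 (Ndufa2) to 0.56 (Ndufb9). In the pre-tumour spleens they lay between -0.38 (Ndufa11) and 0.32 (Ndufa12).

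Within groups the members moved together. For each gene, the values of the 19 arrays with the group means removed were correlated with the mean of the other members. The median correlation was 0.72, and 58 of 80 members (72.5%) were above 0.5, against 12.3% and a median of -0.04 over the 22100 other genes. These are descriptions over arrays that were normalised together. The closest to the common pattern were Atp5md (0.95), Cox6b1 (0.93), Uqcrc1 (0.93), Cox7a2 (0.92) and Ndufa4 (0.92). Complex III had a median of 0.78 and complex IV one of 0.59, with 7 of its 17 genes below 0. Those below 0 included Cox7a2l (-0.46), Cox7c (-0.35) and the dim or tissue-restricted Cox6a2 (-0.45), Cox8b (-0.43), Cox7a1 (-0.32), Cox8c (-0.24) and Cox4i2 (-0.07). Outside complex IV the lowest were Atp5j2 (-0.47), Ndufs5 (-0.35) and Sdha (-0.20).

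Other genes of mitochondria followed the members in part. In the Sca1-Cre tumours against wild type, 33 of 42 assembly factors were higher (median 0.15), 9 of them at an unadjusted p under 0.05, and 0 were lower at that threshold, where 6.12% of all genes were higher and 5.25% lower. So were 59 of 71 genes of the mitochondrial ribosome (median 0.19, 15 and 0), 16 of 24 import genes (0.14, 7 and 0) and 9 of 12 genes of the citric acid cycle (0.28, 4 and 0). Of 13 regulators of mitochondrial biogenesis, 2 were higher and 5 lower at that threshold, with a median of 0.04. Electron carriers and supercomplex factors, a list that includes the member Cox7a2l, had 4 of 5 higher (median 0.20). None of these genes had an adjusted p under 0.05, and the all-gene median was -0.00. Aid-Cre and Mb1-Cre tumours had assembly factor medians of -0.10 and -0.10 and mitochondrial ribosome medians of -0.08 and -0.07 against wild type, while their member medians were 0.01 and 0.05.

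Lists with no tie to mitochondria were also higher in the Sca1-Cre tumours. The proteasome had 36 of 39 genes higher than wild type (median 0.36, 16 at an unadjusted p under 0.05) and the cytosolic ribosome 53 of 65 (0.15, 10), beside the same 6.12% of all genes. Differences of like or larger size were thus measured in these lists. Against the pre-tumour spleens the proteasome was again higher (35 of 39, median 0.30) and the cytosolic ribosome was not (23 of 65, median -0.06). Sca1-Cre tumour replicate 4 had the highest value of all 19 arrays for the members (0.45), the mitochondrial ribosome (0.44), import (0.51), the citric acid cycle (0.44) and the proteasome (0.67).

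**Figure D5:**
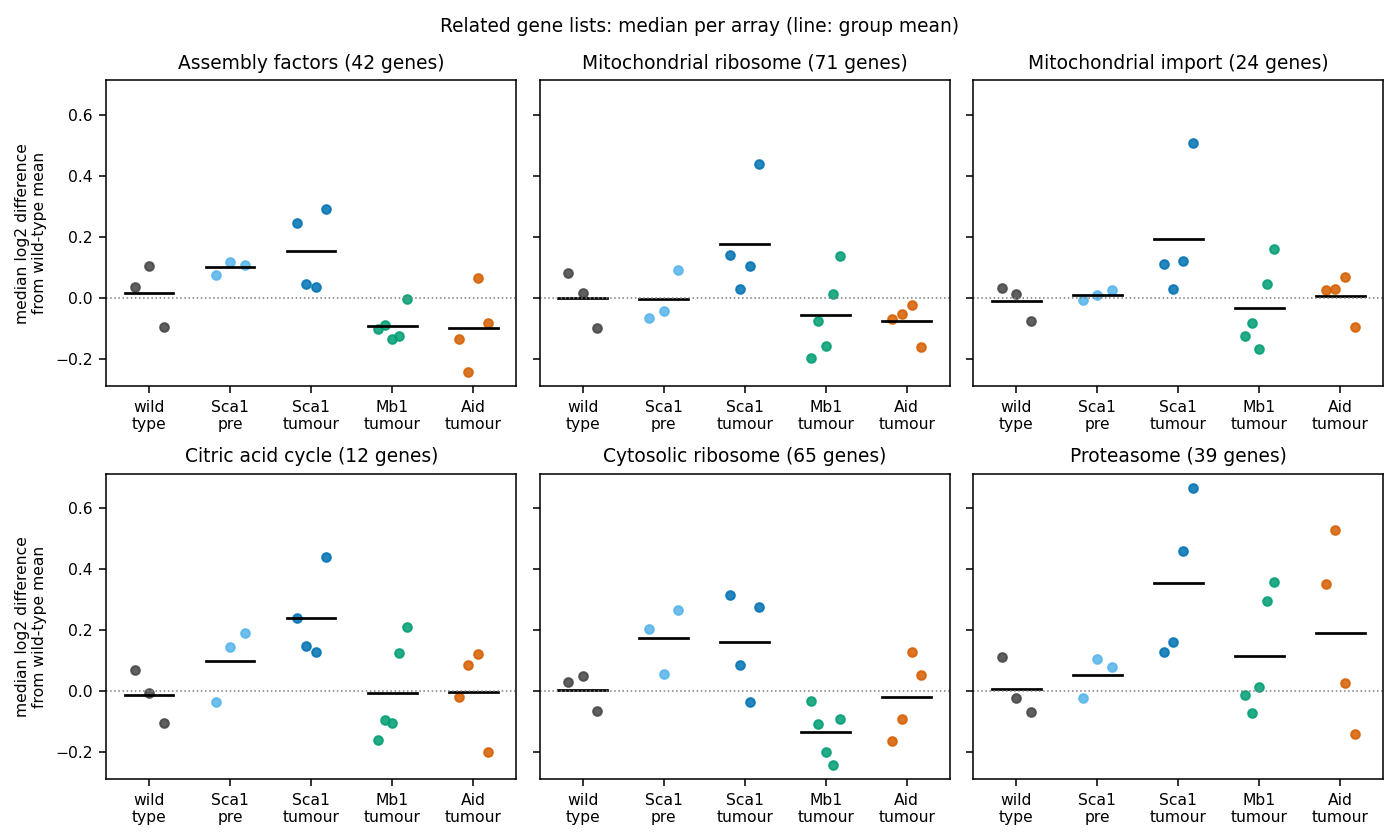
Each point is 1 array, and the vertical axis is the median log2 difference from the wild-type mean over the genes of 1 related list, with a line at each group mean. One Sca1-Cre tumour array stands far above the rest for the mitochondrial ribosome (0.44) and import (0.51), and the proteasome panel shows 2 Aid-Cre arrays at 0.35 and 0.53.

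Marker genes of proliferation and of other cell types differed between the same arrays. In the Mb1-Cre tumours, replicates 1 to 5, with member medians of -0.09, -0.06, -0.13, 0.22 and 0.27, had proliferation medians of -0.78, 0.18, 0.91, 1.54 and 1.45. In the Aid-Cre tumours, replicates 1 to 4, with member medians of 0.10, 0.17, -0.05 and -0.18, had proliferation medians of 1.05, 1.42, -1.67 and -0.98 and erythroid medians of 1.07, 1.03, -1.79 and -0.50. In the Sca1-Cre tumours, with member medians of 0.12, 0.12, 0.25 and 0.45, proliferation was at -1.63, 0.56, 0.54 and 0.65 and erythroid genes at -1.12, 0.62, 0.17 and -1.49. The 2 Mb1-Cre and the 2 Aid-Cre arrays with the highest member medians thus also had the highest proliferation medians of their groups. Mb1-Cre replicate 3 had the lowest member median of its group with proliferation at 0.91. The same 2 Aid-Cre arrays had the highest erythroid medians of their group, and erythroid genes did not follow the members in the Sca1-Cre tumours. Over the Mb1-Cre arrays erythroid medians ran from -2.09 to 1.32. The pre-tumour spleens had low proliferation (-2.64 to -0.77, all 11 genes below wild type) and low erythroid genes (-3.18 to -0.97, all 5), with member medians near 0. Proliferation genes were 1.59 and erythroid genes 1.27 higher, by list median, in the Sca1-Cre tumours than in the pre-tumour spleens.

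Lymphoid and myeloid markers also differed. B cell genes were lower than wild type by list median in all tumour lines (-0.88 in Sca1-Cre, -1.13 in Mb1-Cre and -1.03 in Aid-Cre, 9 of 9 genes each). Single arrays spread widely, with B cell medians of -2.39 to -0.02 in Sca1-Cre, -1.95 to -0.41 in Mb1-Cre and -3.40 to 0.23 in Aid-Cre tumours. T cell genes were higher in the Sca1-Cre tumours (0.51, 5 of 6) and pre-tumour spleens (0.69, 6 of 6) and lower in the Mb1-Cre and Aid-Cre tumours (-0.65 and -0.68, 6 of 6 each). Neutrophil genes were 2.33 higher in the Mb1-Cre tumours (9 of 9), 0.68 higher in the Sca1-Cre tumours and 0.07 in the Aid-Cre tumours. The Aid-Cre arrays ran from -1.87 to 2.57 for neutrophil genes, and the wild-type arrays from -1.12 to 1.15. In the Mb1-Cre, Sca1-Cre and Aid-Cre tumours, macrophage medians were 0.98, 0.30 and 0.27, and NK cell medians -0.25, 0.23 and 0.25. Adipose and skeletal muscle genes lay between -0.22 and 0.26 of wild type by list median in every array. The part of cell makeup and proliferation in the members' differences was not tested.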

How the data were processed

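Spleen RNA (Trizol extraction, biotin label, per the labels' protocols) of 19 samples was measured on Affymetrix arrays. The authors deposited log2 values for each probe set, made with RMA and oligo per the submitters' processing notes, with no version given. Precision is limited by the number of arrays. Of 41345 probe sets, 23521 carried 1 gene symbol, 1814 several and 16010 none. The probe set with the highest mean stood for a gene, which left 22180 genes, and no filter on dim genes was applied.

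Groups, taken from the titles, entered limma 3.58.1 (R 4.3.3): 1 fit of 5 group means over 19 arrays, 9 contrasts and an F-test over the 3 tumour groups, two-sided, with Benjamini-Hochberg adjustment over 22180 genes and a threshold of 0.05. All tumours weighted the 3 lines equally. P-values at an unadjusted threshold of 0.05 were used for counts only. The fit was tested on simulated data. Nothing states beyond the titles that replicates were separate animals, so p-values measure the spread between these arrays. The labels name no batch.

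Named members are, per complex, the 2 per direction with the lowest p against wild type in each comparison, the 3 with the lowest p of the F-test, the Sdh genes, Cyc1 and pairs of tissue forms. Members, lists and tests were chosen with earlier results of these data known. Alternatives were quantile, cyclic loess and median normalisation, a filter on dim genes, the mean of probe sets, only the groups compared, a variance trend, a replicate block, a covariate for sex, both arrays with pancreatic transcripts left out, and each array left out in turn. The covariate for sex was not a label: it was the mean of Kdm5d, Uty and Eif2s3y minus Xist in each array. The sex mix of the groups is not given here. Promoter windows came from RefSeq (GRCm38.p6).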

Additional observations from a re-analysis of the deposited data

Results flagged for a closer look

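Within groups of 4 or 5 arrays, 177 checks of 1 array against the rest of its group found 6 values, in 5 arrays, that stood apart (3.39%), where chance gives about 5%. The median of complex IV was 0.20 above the wild-type mean in Sca1-Cre tumour replicate 3 and 0.05 to 0.08 in the other 3. In Sca1-Cre tumour replicate 2, Cox7a1 was at 5.27 (the others at 5.46 to 5.49) and Cox8a at 9.96 (the others at 10.12 to 10.14). Ndufs3 was at 6.84 in Sca1-Cre tumour replicate 4, with the others at 6.71 to 6.73. Cox7a2l was at 8.08 in Aid-Cre tumour replicate 3 (the others at 7.66 to 7.71), and Cox7c at 6.08 in Mb1-Cre tumour replicate 1 (the others at 5.56 to 5.70).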

How the results depend on the processing

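Under every alternative 0 members were called in the 9 comparisons and the F-test, except 1 (Ndufs8) in Aid-Cre against Sca1-Cre tumours without Aid-Cre tumour replicate 3. Member medians moved by less than the spread between arrays of a group (0.15). Under the alternatives and with 1 array left out, the median against wild type was 0.17 to 0.29 in the Sca1-Cre tumours (main value 0.23) and 0.03 to 0.12 over all tumours (0.08), and that of Sca1-Cre tumours against pre-tumour 0.14 to 0.26 (0.19). It was -0.29 to -0.11 for Aid-Cre against Sca1-Cre tumours (-0.20) and -0.27 to -0.10 for Mb1-Cre against Sca1-Cre tumours (-0.21). Medians close to 0 took both signs: -0.02 to 0.07 in the Aid-Cre tumours, -0.01 to 0.11 in the Mb1-Cre tumours and -0.02 to 0.09 in the pre-tumour spleens against wild type, and -0.10 to 0.06 for Aid-Cre against Mb1-Cre tumours. Counts of members at an unadjusted p under 0.05, an alternative chosen after seeing the data, moved more, as did the share of all genes, given in brackets, and the cause was not tested. Sca1-Cre tumours against wild type gave 31 (9.86%) after median centring (main count 20, 6.12%) and 12 (3.92%) to 25 (7.03%) with 1 array left out. Sca1-Cre tumour against pre-tumour gave 16 (5.32%) after median centring, 19 (3.90%) with only the groups compared (main count 10, 2.42%) and 3 (1.42% to 1.80%) to 15 (3.05%). Aid-Cre against Sca1-Cre gave 13 after cyclic loess (8.34%) and 13 with only the groups compared (5.50%; main count 22, 7.92%) and 11 (6.47%) to 29 (7.11%). Mb1-Cre against Sca1-Cre gave 11 (7.87%) after cyclic loess (main count 24, 10.4%) and 12 (6.91%) to 32 (10.5%). The filter on dim genes kept 73 members and 11765 genes. In the same order of comparisons, the counts were then 20 (8.65%), 10 (2.93%), 22 (12.2%) and 20 (16.3%). Of 110 differences of named genes, 23 were within their standard error and have no direction to keep, and 55 of their 448 alternative values had the other sign. Of 1579 alternative values of the other 87, 3 changed direction: Cox6a2, all tumours against wild type, became 0.039 without both arrays with pancreatic transcripts and 0.031 without wild type replicate 2 (-0.27 to 0.031 with 1 array left out), and Atp5e, Mb1-Cre tumour against wild type, became 0.011 without wild type replicate 1 (-0.30 to 0.011).

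The replicate numbers do not pair the arrays: residuals of 33 pairs with the same number had a median correlation of -0.05, from -0.53 to 0.41, and those of 110 other pairs one of 0.01. With the number as a replicate block, 0 members were called in any comparison, and the median in the Sca1-Cre tumours against wild type was 0.21. Dim probe sets near background, such as those of Ndufs5 and Cox8b, limit what can be seen.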
